A study of Mus musculus with 9 samples.

Results

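The genes described here encode 7 subunits of the GABA-A receptor, Gabra2, Gabra3, Gabra4, Gabrb1, Gabrb2, Gabrg1 and Gabrd, in mouse striatum. Their probe sets were those whose single gene symbol in the array annotation was one of these 7. The rule found 7 probe sets of 6 of the 7 genes, among 22690 probe sets and 12393 genes in all. Each probe set combines the brightness of several short DNA probes against a transcript into a single signal. Gabrg1 had 2 probe sets, and Gabra4, for which no probe set was listed under its symbol alone, was not analysed here. Total RNA of left and right striatum came from male C57BL/6J mice aged 56 days and was hybridised to single-colour Affymetrix arrays. The 3 groups were mice injected with saline (control), with methamphetamine (METH) or with MPTP, and the labels call the 3 arrays of each group biological replicates. METH releases dopamine and can damage its nerve terminals, and a metabolite of MPTP poisons dopamine neurons. The study used both toxins to model Parkinson's disease in mice. How much toxin was given, how often and how long before dissection is not stated in the sources used here.

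GABA-A receptors are chloride channels opened by the transmitter GABA, built of several subunits around a pore. Alpha and beta subunits form the sites where GABA binds, a gamma subunit anchors most receptors at synapses, and delta takes the place of gamma in receptors outside synapses that carry a steady current. Most striatal neurons, the spiny projection neurons, both release GABA and are inhibited by it.

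Gabrb2, encoding the beta2 subunit, had a higher mean signal in both toxin groups than in control, by 1.43-fold in METH and 1.35-fold in MPTP, and all 6 toxin arrays lay above all 3 control arrays. Gabra3 and one Gabrg1 probe set had lower signals in all 3 METH arrays than in all 3 MPTP arrays. Without METH 2 the METH against MPTP log2 difference went from -0.62 to -0.38 for Gabra3. For that Gabrg1 probe set it went from -0.52 to -0.26. Of all tested probe sets, METH and control did not overlap in 13.6%, MPTP and control in 11.1% and METH and MPTP in 7.22%. All 6 toxin arrays lay above control in 2.53%, counted after the Gabrb2 values were seen. Gabra2, Gabrb1 and Gabrd had group means within 1.06-fold of control in both toxin groups. None of these differences passed the test after adjustment over all 12509 probe sets tested (limma, Benjamini-Hochberg, threshold 0.05). In that fit 0.016% of probe sets were called in METH against control, 0.016% in MPTP against control, 0% in METH against MPTP, and 0.016% in the F test for any difference among the groups. The 2 probe sets called against control in each toxin group were both of Gfap, the intermediate filament of astrocytes. Of the 7 GABA-A probe sets, 6 passed the filter on dim signal, a mean of 741 over the 9 arrays. In striatal homogenate, fewer cells of a type and less RNA per cell cannot be told apart.

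**Figure D1:**
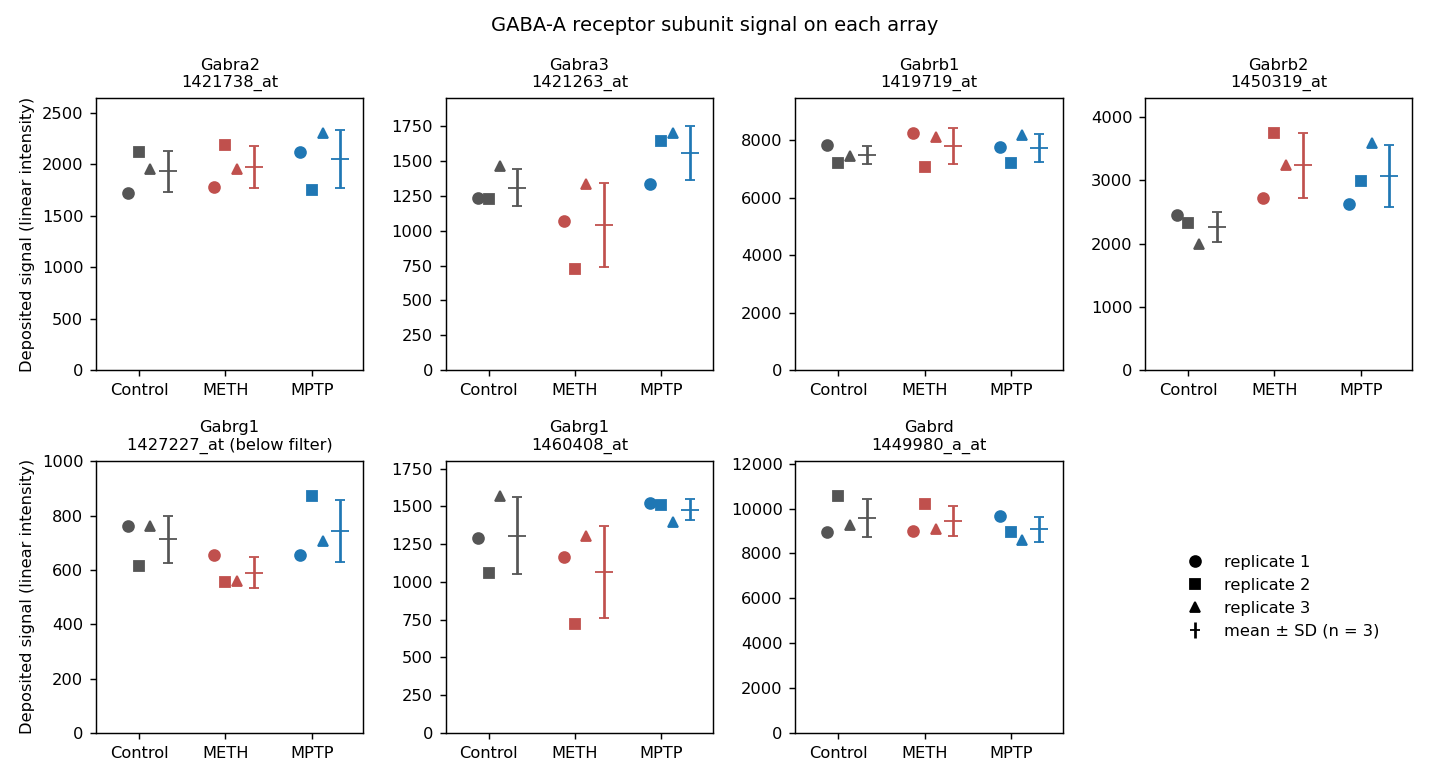
Deposited signal (linear intensity, y axis from 0) of each GABA-A probe set on the 3 control, 3 METH and 3 MPTP arrays, with marker shape for the replicate number and bars for mean ± SD (n = 3). For Gabrb2 the 6 toxin arrays lie at 2622 to 3741, above the control arrays at 1992 to 2446.5.

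The stretch just upstream of a start site is shown for the 3 genes whose groups separated in any comparison. Sequences are RefSeq's on GRCm38.p6, 5′ to 3′ on the gene's strand, 250 bases ending at the base before the start. RefSeq's table gave 3 starts for Gabrb2 and 2 for Gabra3, of which 1 each is printed. Capitals mark a TATA box (TATAAA) or a GC box (GGGCGG), on either strand.
Gabrb2, chr11:42420190-42420439, plus strand: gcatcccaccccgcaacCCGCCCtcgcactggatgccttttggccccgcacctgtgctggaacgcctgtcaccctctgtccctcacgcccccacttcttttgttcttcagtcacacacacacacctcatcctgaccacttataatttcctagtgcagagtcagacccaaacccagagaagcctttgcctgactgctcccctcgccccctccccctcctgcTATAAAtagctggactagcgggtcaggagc
Gabra3, chrX:72656920-72657169, minus strand: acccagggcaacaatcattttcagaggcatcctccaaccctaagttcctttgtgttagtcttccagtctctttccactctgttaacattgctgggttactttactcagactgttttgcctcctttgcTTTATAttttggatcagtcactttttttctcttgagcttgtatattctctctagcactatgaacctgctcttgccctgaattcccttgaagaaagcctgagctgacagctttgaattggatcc
Gabrg1, chr5:70842618-70842867, minus strand: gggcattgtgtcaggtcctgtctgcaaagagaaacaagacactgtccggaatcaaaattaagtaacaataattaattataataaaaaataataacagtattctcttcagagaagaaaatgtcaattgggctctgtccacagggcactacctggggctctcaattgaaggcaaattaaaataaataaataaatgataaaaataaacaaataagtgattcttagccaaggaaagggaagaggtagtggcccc
The Gabrb2 window printed held a TATA box whose first base lay 30 bases before the start and a GC box 233 bases before it, while the other 2 Gabrb2 windows held neither. The Gabra3 window held the TATA letters on the opposite strand, 123 bases before the start, and the second Gabra3 window overlaps it and holds the same site. No match to either motif was found in the Gabrg1 window. The GC content of the windows was 58.8% for Gabrb2, 42.4% for Gabra3 and 35.6% for Gabrg1, against a median of 52.4% over 32851 such windows of all genes. Over the 10 windows RefSeq's table gave for 6 of the 7 genes, which included Gabra4 and lacked Gabrd, 3 held the TATA box, at 2 distinct sites, and 3 the GC box. The shares of all windows were 12.4% and 32.7%. The cyclic AMP response element (TGACGTCA) was in 0 of the 10 and in 1.55% of all windows. The Egr site (GCGTGGGCG), which shares the letters GGGCG with the GC box, was in 0 of the 10 and in 0.536% of all. These matches describe letters only.

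Both beta subunits were measured. Gabrb2 (probe set 1450319_at), whose product is a widespread beta subunit of the adult brain, had signals of 2446.5, 2330.5 and 1992 in control 1, 2 and 3. Its signals were 2718, 3741 and 3247 in METH 1, 2 and 3. In MPTP 1, 2 and 3 they were 2622, 2991 and 3586.5. The lowest toxin array, MPTP 1, was above the highest control array, and the METH and MPTP arrays overlapped. The group means were 2256 ± 236 in control, 3235 ± 512 in METH and 3067 ± 487 in MPTP (SD, n = 3). The log2 fold change of METH over control was 0.51 ± 0.15 (SE; 95% interval 0.17 to 0.85), a fold of 1.43 with an interval of 1.13 to 1.81. The limma fit gave adjusted p = 0.496. For MPTP over control the log2 fold change was 0.44 ± 0.15 (0.10 to 0.78), a fold of 1.35 with an interval of 1.07 to 1.71. The fit gave adjusted p = 0.874 here. Both comparisons use the same 3 control arrays. The F test over the 3 groups gave an adjusted p = 0.851.

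The Gabrb2 separation stood against a background in which many probe sets separate. Groups did not overlap in 13.6% of all tested probe sets for METH against control and 11.1% for MPTP against control. All 6 toxin arrays were above all 3 control arrays in 2.53%, a count made after the Gabrb2 values were seen. An unadjusted p under 0.05 was found in 8.67% for METH, 5.47% for MPTP and 5.73% for the F test. Among the 6 tested GABA-A probe sets, Gabrb2 was the 1 with such a p and with groups apart in each toxin's comparison with control. Leaving out each array in turn gave log2 fold changes of 0.40 to 0.63 for METH and 0.32 to 0.54 for MPTP. Without METH 2, its highest array, the METH value was 0.40 ± 0.16. The summed signal of microglia and macrophage markers, with probe sets for 10 of 10 genes, moved with it in METH, at 47610 to 54938 on the control arrays, 57674 to 58731 on the METH arrays and 53770 to 58348 on the MPTP arrays. For astrocyte markers, also 10 of 10 genes, it was 112373 to 118452, 115456 to 127522 and 119325 to 129013 on the control, METH and MPTP arrays. Gfap, the gene called in both toxin groups, carried most of that: without it the sums were 107353 to 112016, 104499 to 115445 and 107975 to 116988, and overlapped. By log2 fold change, 8 of the 10 astrocyte marker genes, Gfap included, were higher in METH than in control, and 7 in MPTP. Slc1a3 and Glul had lower mean signals in both toxin groups, which offset rises of other genes in the sum. The part of microglia or astrocyte markers in the Gabrb2 values was not tested.

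Gabrb1 (1419719_at), the beta1 subunit, overlapped across the groups. Control arrays gave 7825, 7206 and 7444, METH arrays 8239, 7082 and 8110, and MPTP arrays 7780, 7218.5 and 8198. METH 2 was the lowest of the 9 arrays and METH 1 the highest, and the highest array was 1.16 times the lowest. The log2 fold change was 0.06 ± 0.10 for METH over control (95% interval -0.16 to 0.28, adjusted p = 0.889) and 0.04 ± 0.10 for MPTP over control (-0.18 to 0.26, adjusted p = 0.975). As folds these intervals ran from 0.89 to 1.21 and from 0.89 to 1.2.

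**Figure D2:**
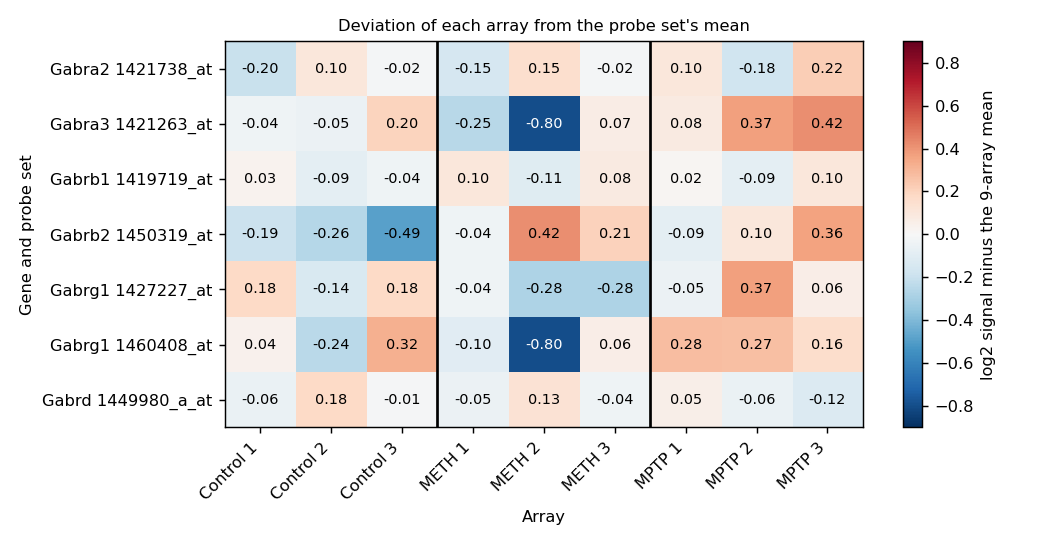
Colour and number give, for each GABA-A probe set (rows) and array (columns), the log2 signal minus the mean of the 9 arrays, red above it and blue below. Gabrb2 is at -0.19, -0.26 and -0.49 in the control arrays, and METH 2 is the array farthest from the mean for Gabra3, at -0.80.

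Of the alpha subunits, Gabra3 (1421263_at) separated METH from MPTP without passing the adjusted test. The alpha3 subunit is found in receptors of many monoaminergic and cholinergic neurons and of some forebrain neurons. Its signals were 1233, 1227 and 1461 in control, 1066.5, 726 and 1332 in METH, and 1338, 1643 and 1697 in MPTP. The highest METH array lay just below the lowest MPTP array, and both toxin groups overlapped with control. Means were 1307 ± 134 in control, 1042 ± 303 in METH and 1559 ± 194 in MPTP (SD, n = 3). METH was 1.53-fold lower than MPTP, with a log2 difference of -0.62 ± 0.20 (95% interval -1.06 to -0.17), adjusted p = 1.0. Against control, the log2 fold change was -0.37 ± 0.20 for METH (-0.81 to 0.08, adjusted p = 0.64) and 0.25 ± 0.20 for MPTP (-0.19 to 0.70, adjusted p = 0.925). Without METH 2, whose signal of 726 was the lowest of the 9, the METH against MPTP difference was -0.38 ± 0.15 and the METH against control difference -0.13.

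Gabra2 (1421738_at) encodes an alpha subunit of synaptic receptors. Control arrays gave 1718, 2123 and 1952, METH arrays 1784, 2190 and 1954, and MPTP arrays 2117, 1748.5 and 2300.0. Every group spanned much the same range. The log2 fold change was 0.03 ± 0.13 for METH over control (95% interval -0.26 to 0.33, adjusted p = 0.954) and 0.09 ± 0.13 for MPTP over control (-0.21 to 0.38, adjusted p = 0.968). As folds these intervals ran from 0.83 to 1.26 and from 0.86 to 1.3, so with 3 arrays a group differences within those ranges were not excluded.

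Gabrg1, the gamma1 subunit, which in the brain has a narrow regional distribution and is also made by glia, was read by 2 probe sets. On 1460408_at the signals were 1293, 1059 and 1568 in control, 1168.5, 721 and 1306 in METH, and 1526, 1511 and 1399 in MPTP. All METH arrays were below all MPTP arrays. Control overlapped both groups, and METH 2 lay below its lowest array. The log2 difference of METH from MPTP was -0.52 ± 0.21 (95% interval -0.99 to -0.04), or 1.43-fold lower, adjusted p = 1.0. Without METH 2 it was -0.26 ± 0.16. Against control the log2 fold change was -0.32 ± 0.21 for METH (adjusted p = 0.697) and 0.20 ± 0.21 for MPTP (adjusted p = 0.946). The METH value was -0.06 without METH 2 and -0.18 without control 3. The MPTP value was 0.05 without control 2, 0.34 without control 3 and 0.07 with array weights.

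The other Gabrg1 probe set, 1427227_at, had a mean signal of 682, under the filter, and is given from a fit with no filter. It read 763, 613 and 763 in control, 656, 556 and 558 in METH, and 654, 872 and 706 in MPTP. METH 1 and MPTP 1 were nearly equal there, so the toxin groups overlapped. The log2 difference of METH from MPTP was -0.33 ± 0.15 (95% interval -0.68 to 0.02), in the same direction as the brighter probe set. Against control the log2 fold change was -0.27 ± 0.15 for METH (adjusted p = 0.75) and 0.06 ± 0.15 for MPTP (adjusted p = 0.984).

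The METH against MPTP contrast had few small p-values over the whole array. Groups did not overlap in 7.22% of tested probe sets, and an unadjusted p under 0.05 was found in 2.85%. Among the 6 tested GABA-A probe sets both counts were 2, Gabra3 and Gabrg1 1460408_at. In each of them METH 2 was the lowest of the 9 arrays, as it was for 4 of the 7 GABA-A probe sets. It was also the highest array for Gabrb2. METH 2 was the lowest array in 15.7% and the highest in 18.3% of all tested probe sets, and had the highest array median, 1233 against 1110.5 to 1178 on the others. Its log2 signals had the narrowest spread, 6.25 against 6.4 to 6.69 on the others. Its array weight of 0.556 was the lowest, with control 1 next at 0.595. The summed signal of striatal interneuron markers, with probe sets for 8 of 9 genes, was 32963 to 38978, 31990 to 33676 and 35576 to 36998 on the control, METH and MPTP arrays, and so was lower in all METH than in all MPTP arrays. Sst, at means of 10471 in METH and 12446 in MPTP, and Npy, at 10882 and 11671, were the largest parts of this sum. By log2 fold change, 2 of the 7 tested marker genes were higher in METH than in MPTP. In mean signal Nos1 (3198 and 3132), Slc18a3 (1483 and 1346) and Slc5a7 (778 and 707, below the filter) were higher in METH. The part of these markers in the Gabra3 and Gabrg1 differences was not tested.

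Gabrd (1449980_a_at), the delta subunit of receptors outside synapses, varied little. Control arrays gave 8937.5, 10554 and 9252, METH arrays 9013.5, 10212 and 9077, and MPTP arrays 9690, 8944 and 8601. The groups overlapped, with an SD within groups of 0.106 on the log2 scale. The log2 fold change was -0.02 ± 0.10 for METH over control (95% interval -0.25 to 0.21, adjusted p = 0.963) and -0.08 ± 0.10 for MPTP over control (-0.31 to 0.16, adjusted p = 0.956). As folds, the intervals ran from 0.84 to 1.16 and from 0.81 to 1.11.

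Over the 6 tested probe sets, METH means were higher than control in 3 and lower in 3, with a median log2 fold change of 0.01, equal to the median over all tested probe sets. With arrays centred on their medians, METH was higher in 1 and lower in 5, with a median of -0.06, and with array weights higher in 2 and lower in 4. MPTP means were higher in 5 and lower in 1, with a median of 0.14 against 0.01 over all tested. For METH against MPTP, 3 were higher and 3 lower, with a median of -0.02 against 0.00 (2 higher and 4 lower with median centring). Precision differed between probe sets, from a log2 SD within groups of 0.094 for Gabrb1 to 0.312 for Gabrg1 1460408_at. It was 0.106 for Gabrd, 0.17 for Gabra2, 0.207 for Gabrb2 and 0.289 for Gabra3, the SD that limits how small a difference could be seen in each.

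**Figure D3:**
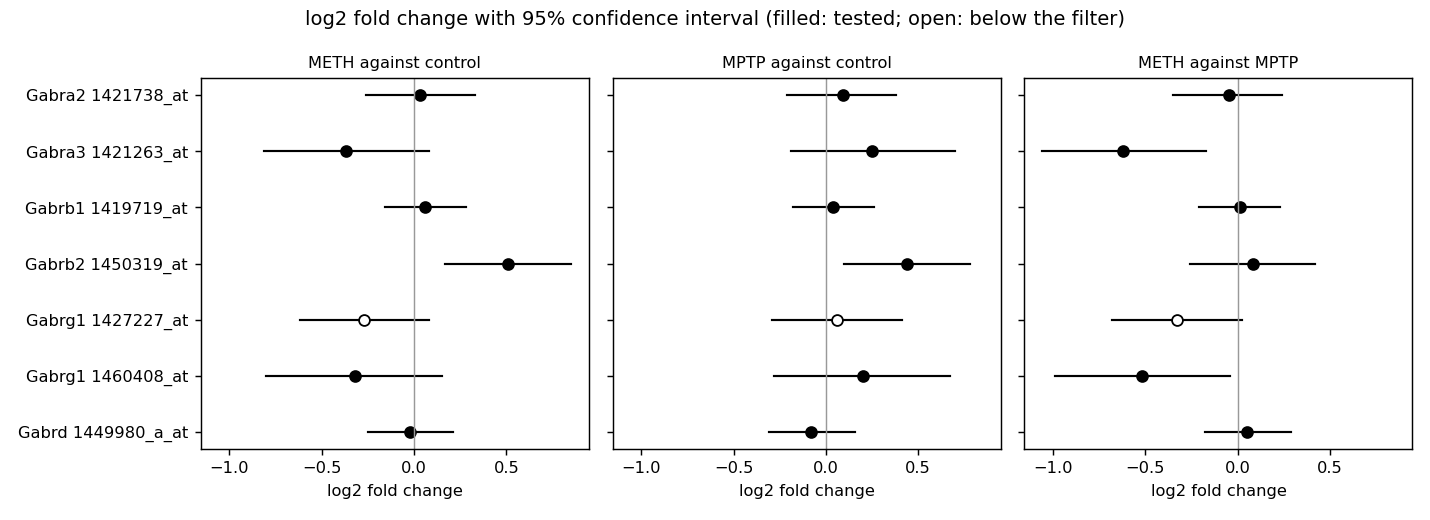
log2 fold change (x axis) of each probe set with its 95% confidence interval from limma, 1 panel per comparison, filled where the probe set was tested and open for the Gabrg1 probe set below the filter. The unadjusted interval lies above 0 for Gabrb2 in both comparisons with control, and below 0 for Gabra3 and Gabrg1 1460408_at in METH against MPTP.

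Several of these genes are neighbours. Gabrg1, Gabra2, Gabra4 and Gabrb1 follow each other on chromosome 5 in RefSeq's GRCm38.p6 gene order, with Cox7b2 lying between Gabra2 and Gabra4. Within that cluster the METH against MPTP log2 difference was -0.52 for Gabrg1 1460408_at, -0.05 for Gabra2 and 0.01 for Gabrb1. Gabrb2 lies on chromosome 11. Gabra3 lies on chromosome X near Gabre and Gabrq, and Gabrd on chromosome 4 apart from other subunit genes.

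For each gene, the gene outside the family with the most similar pattern was found by the root mean square difference of log2 deviations, scaled to unit SD, over the 9 arrays and 7956 genes. The median difference to all genes was 1.33 to 1.34 SD. Prkra was nearest to Gabra2 at 0.25 SD, Tex2 to Gabra3 at 0.31, Abca2 to Gabrb1 at 0.30, Nppb to Gabrb2 at 0.29, Rasgrf1 to Gabrg1 at 0.29 and Shfl to Gabrd at 0.21. Each of these was picked as the closest of 7956 genes on the same 9 arrays. A close match and a like direction thus came from the search and are no separate evidence. Scaled patterns carry no size. Nppb, which encodes a natriuretic peptide, had log2 fold changes of 0.50 ± 0.15 for METH and 0.29 ± 0.15 for MPTP over control. Tex2, nearest to Gabra3, differed between METH and MPTP by only -0.11 ± 0.09.

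Other genes that GABA signalling depends on were counted by role, and none of their probe sets passed the adjusted test in any comparison. Of 12 other GABA-A subunit genes, 7 had probe sets and 2, Gabrg3 and Gabrp, had 3 that passed the filter. All 3 had a higher mean in METH than in control. The median log2 fold change was 0.26 in METH and 0.29 in MPTP. Of these 3, 2 were of Gabrp. Probe set 1424647_at had a control mean of 701, below the filter of 741, and means of 1132 in METH and 1019.5 in MPTP. Its passing the filter thus drew on its toxin arrays, so the shared direction of the 3 cannot show whether these genes rose. Gabrp (1424647_at), the pi subunit, varied widely among controls, at 701, 357 and 1044, against 1334, 1140 and 921 in METH and 994, 948 and 1116 in MPTP. Its METH log2 fold change was 0.81 ± 0.32 (adjusted p = 0.542), and the groups overlapped. Its second probe set gave 0.26 in METH and 0.29 in MPTP. Gabrg3 had 0.03 ± 0.16 in METH.

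Of 20 scaffold and trafficking genes, which hold receptors at the synapse or carry them to and from the membrane, 13 had tested probe sets, 21 in number. Means were higher in METH for 10 and lower for 11, with a median of -0.01, and higher in MPTP for 14 and lower for 7, with a median of 0.05. Hap1 (1416997_a_at), a partner of huntingtin and of kinesin transport of GABA-A receptors, had signals of 2926, 3083 and 3189 in control. It read 3796, 3457.5 and 3413 in METH and 3416, 3881 and 3573 in MPTP. All toxin arrays were above all control arrays, as in 2.53% of all tested probe sets. Hap1 was named for having the smallest F test p of its list, so this separation is no separate evidence. The log2 fold change was 0.21 ± 0.09 for METH (adjusted p = 0.575) and 0.24 ± 0.09 for MPTP (adjusted p = 0.88). Trak1 (1428327_at), an adaptor of kinesin transport, ran the other way, at 6414.5, 6462 and 6019 in control, 5759, 5955 and 5410 in METH and 5336, 5167 and 5685 in MPTP. Its log2 fold change was -0.14 ± 0.09 for METH and -0.22 ± 0.09 for MPTP (adjusted p = 0.88). A second Trak1 probe set gave 0.07 and -0.03.

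Of 8 genes of GABA synthesis, packaging, uptake and breakdown, 4 had 5 tested probe sets, 3 higher and 2 lower in each toxin group, with median log2 fold changes of 0.05 in METH and 0.11 in MPTP. Gad2 and Gad1 encode the enzymes that make GABA. Gad2 (1421978_at) had a log2 fold change of 0.26 ± 0.11 in METH (adjusted p = 0.567) and 0.11 ± 0.11 in MPTP. Gad1 (1416562_at) had 0.15 ± 0.10 and 0.12 ± 0.10, and its second probe set -0.02 and -0.06. Of 6 GABA-B receptor genes only Gabbr1 had tested probe sets, 3 in number, with medians of -0.01 in METH and 0.07 in MPTP. Of 10 chloride transport genes, which set the gradient that GABA-A currents follow, 7 had 15 tested probe sets, with medians of -0.02 in METH and 0.04 in MPTP. Slc12a2 (1417623_at), the chloride importer NKCC1, had 0.25 ± 0.12 in METH and 0.23 ± 0.12 in MPTP (adjusted p = 0.617 and 0.88). Its other tested probe sets gave less in METH, 0.12 and 0.08, and 0.20 and 0.26 in MPTP. Slc12a5 (1425337_at), the chloride exporter KCC2, had 0.24 ± 0.17 and 0.09 ± 0.17, and its second probe set -0.04 and 0.01.

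**Figure D4:**
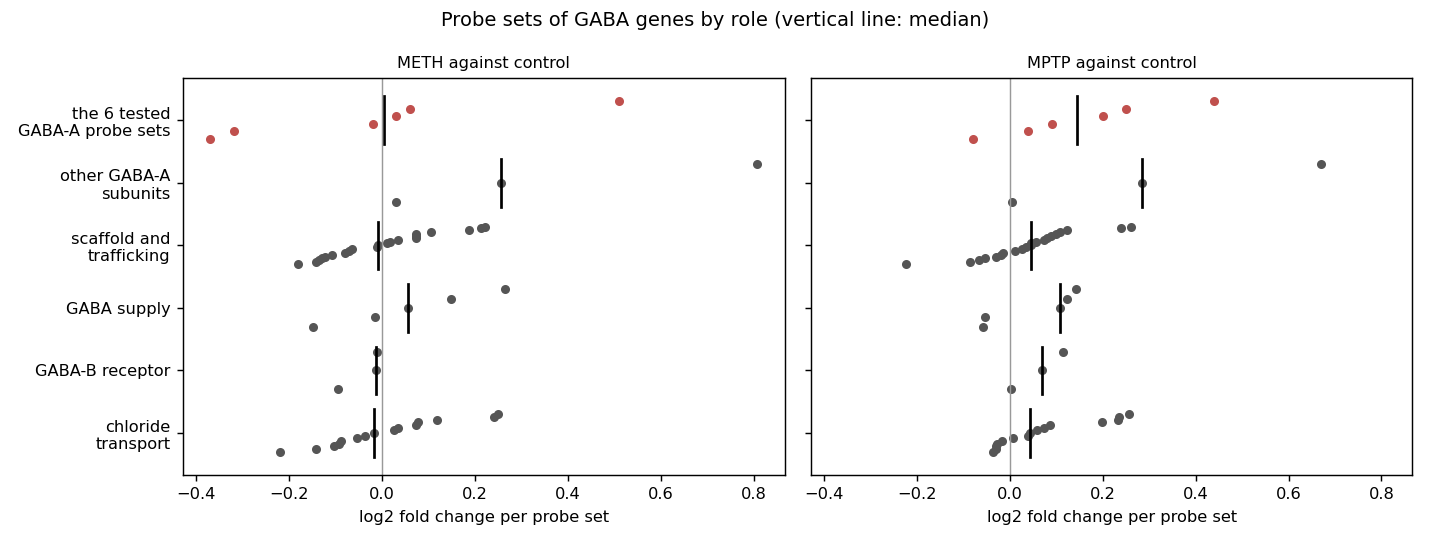
log2 fold change over control (x axis) of each tested probe set, by role (rows), for METH and for MPTP, with a vertical bar at each row's median. The medians of the 5 lists outside the GABA-A genes described first lie between -0.02 and 0.29, and Gabrp at 0.81 is the farthest point in METH.

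The labelled tissue was checked against its markers. Of 15 spiny neuron marker genes 10 had a probe set, and all 10 passed the filter, Ppp1r1b, Penk and Drd2 among them, with summed signals of 258739 to 283307, 250512 to 265924 and 232429 to 267835 on the control, METH and MPTP arrays. For cortical excitatory neurons 2 of 6 genes passed, with sums of 11348 to 13220, 9059 to 11497 and 10320 to 11605 in the same order. Most of these sums was Lamp5, at means of 9064, 8029 and 8546, while Tbr1, Neurod6, Cux2 and Fezf2 were below the filter. For tissue next to striatum 4 of 9 passed, and the 3 groups overlapped. Choroid plexus markers varied most within groups, at 15026 to 69751, 11192 to 54473 and 5900 to 36881. Of 6 cerebellar marker genes 2 passed, Cbln1 and Car8, while Gabra6, known for cerebellar granule cells, was below the filter. The cerebellar sums overlapped between groups, at 3528 to 3878, 3563 to 3878 and 2988 to 4357 in the same order.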

How the data were processed

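The values used are the intensity values the authors deposited, 1 for each of 22690 probe sets on each of 9 arrays, on a linear scale from 0.342 to 84013 and not centred by gene. RMA is named per the submitters' processing notes, with no version. The deposited intensity values do not have RMA's usual form, so how probe sets were summarised is unsettled. Each array had a trimmed mean of 2501, so arrays had been scaled alike. With a single colour there is no dye direction to settle. The annotation that matched the values is of a smaller array than the one the submitters' text names. It gave 1 symbol to 20380 probe sets, several to 691 and none to 1555, and 64 were controls. Array medians were 1110.5 to 1233. The number of arrays, 3 a group, limits the precision.

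Log2 values were fitted with limma 3.58.1 in R 4.3.3, with all 9 arrays in 1 model, no added constant and two-sided tests. Tested were 12509 probe sets of 7964 genes with 1 symbol and a mean log2 value at or above the 40th percentile, 9.53. P-values were adjusted over all of them, and an adjusted p under 0.05 was called. The fit was tested on simulated data, with 200 of 12509 probe sets raised in METH. At an adjusted p under 0.05, 14 of 50 were recovered at a log2 of 0.5 and 42 of 50 at a log2 of 1. Of the unchanged probe sets 6 were called. Alternatives were quantile normalization, median centring, other filters, an added 50, 1 probe set per gene, probe set kinds, a replicate block, fewer groups in the fit, array weights and leaving out each array. Named were every probe set of the 7 genes, and from each list of GABA genes the 2 genes with the smallest F test p. For each of the 7 genes with a tested probe set, the gene with the most similar pattern was named too. The genes and lists were chosen with earlier results of these data known. The METH and MPTP comparisons share their control arrays.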

Additional observations from a re-analysis of the deposited data

How the results depend on the processing

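None of the 336 values of the GABA-A probe sets under the alternatives passed the adjusted test, and the lowest adjusted p was 0.295. The count of called probe sets over the whole array, 2 for METH, 2 for MPTP and 2 for the F test (limma), was small and moved. It was 0, 0 and 0 with arrays centred on their medians, without _x_at and _s_at probe sets, and with the replicate block. It was 1, 0 and 0 with no filter, and 1, 1 and 1 with 1 probe set per gene. With only the compared groups it was 1 for METH and 0 for MPTP. Leaving out each array gave 0 to 3 for METH, 0 to 3 for MPTP and 0 to 1 for the F test. With an unadjusted p under 0.05 the METH count was 1084 in the fit reported (725 higher, 359 lower), 1062 with median centring (391 higher, 671 lower), 1013 with quantile normalization (538 higher, 475 lower) and 1035 with the replicate block. Replicate numbers were not treated as pairs, since deviations of arrays with the same number correlated at -0.13 to 0.06. The causes of these moves were not tested.

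Gabrb2 kept its direction against control under each alternative, at 0.45 to 0.52 for METH and 0.40 to 0.50 for MPTP without leaving out arrays. Signs turned only for values near 0. For METH against control, median centring gave -0.01 for Gabrb1 and -0.03 for Gabra2, quantile normalization -0.01 for Gabra2 and 0.02 for Gabrd, and array weights -0.03 for Gabra2. Leaving out arrays gave -0.05 to 0.10 for Gabra2 and -0.08 to 0.05 for Gabrd. For METH against MPTP, median centring gave -0.01 for Gabrb1, and leaving out arrays gave -0.04 to 0.08 for Gabrb1, -0.16 to 0.03 for Gabra2, 0.00 to 0.10 for Gabrd and -0.03 to 0.20 for Gabrb2.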
